A study of Mus musculus with 12 samples.

Results

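Kidneys of db/db mice were compared with kidneys of db/m mice at 16 weeks of age. The db/db mouse carries the diabetes mutation of the leptin receptor gene Lepr on both chromosomes, overeats, and becomes obese and hyperglycaemic. The db/m mouse carries 1 mutated and 1 normal copy, stays lean and is the usual control. The comparison rests on 3 arrays titled db/m 16 wk and 3 titled db/db 16 wk, 6 of the 12 arrays of the series, and the other 6 hold the same genotypes at 8 weeks. All probe sets that are not array controls were taken, 12422 of 12488, and 6949 of them, which represent 5360 genes, were bright enough to be tested. The labels give kidney as the tissue and call the arrays biological replicates. They name no treatment, no sex, no part of the kidney, no strain background and no diet, and do not say whether animals were pooled. The precision of each value is limited by the 3 arrays per group, and the median deposited intensity lay between 412 and 442 in the db/m group and between 498 and 520 in the db/db group. A keyword reads db/m mice on every sample, so the genotypes were taken from the titles. Both probe sets of Lepr were too dim to be tested: the first read 21.4, 32.5 and 71.8 on the db/m and 24.1, 144.5 and 85.9 on the db/db arrays, and the second read 159.6, 108.6 and 173.3 against 85.6, 25.2 and 21.0. The titles were therefore not checked by the mutated gene. Kidney was plain in the data, with the loop of Henle gene Umod at 14352, 14408 and 15716 on the db/m and 13270.1, 11932 and 12487 on the db/db arrays. In this and every later sentence the 3 values of a genotype are normalised intensities on replicates 1, 2 and 3 in that order, and a value under 155 was set to that floor in the test. Where the lower group holds such a value, the fold change given is a lower bound of its size. Replicates of 16 weeks are meant unless 8 weeks is named.

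A kidney filters blood in glomeruli and recovers most of the filtrate in the proximal tubule, whose cells live on fatty acid oxidation, make glucose and carry dense arrays of transporters and brush border peptidases. Later segments, the loop of Henle, distal tubule and collecting duct, set the final salt, calcium, acid and water content of urine. In the db/db mouse the kidney is exposed to high glucose, high circulating fatty acids and high circulating corticosterone, and the model is used for the early, albuminuric stage of diabetic kidney disease. Male mouse kidneys also respond strongly to androgens, chiefly in the proximal tubule.

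At 16 weeks db/db kidneys held more mRNA for a lipid droplet coat protein, stress and growth arrest genes, a glutathione transferase and metallothioneins, and less for androgen-dependent enzymes, brush border proteins and enzymes of sterol synthesis. Plin2, which coats lipid droplets, read 7527, 5392 and 5349.5 on the db/m and 20747, 47420 and 50548 on the db/db arrays (log2 fold change 2.61, SE 0.30, limma adjusted p = 0.000261). Ddit4, an inhibitor of mTOR signalling, read 771, 815 and 1296 on the db/m and 2828, 15664 and 15849 on the db/db arrays (log2 fold change 3.25, SE 0.53, limma adjusted p = 0.00141). Both genes had every db/db array above every db/m array, and both were lower on db/db replicate 1 than on replicates 2 and 3. Gsta2, a glutathione transferase, read 1981, 2394 and 4523 on the db/m and 26569, 20189 and 22519 on the db/db arrays (log2 fold change 3.05, SE 0.29, limma adjusted p = 0.000166), and here replicate 1 was the highest of the 3. Cyp7b1, an oxysterol hydroxylase that androgens maintain in male mouse kidney, read 7587, 7745 and 6122 on the db/m and 895, 387 and 169 on the db/db arrays (log2 fold change -4.20, SE 0.44, limma adjusted p = 0.000231). Slc15a2, which recovers filtered peptides, read 3586, 3552 and 4144 on the db/m and 1019, 1040.4 and 967 on the db/db arrays (log2 fold change -1.90, SE 0.15, limma adjusted p = 4.30e-05), so that its 3 db/db arrays were nearly equal.

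**Figure D1:**
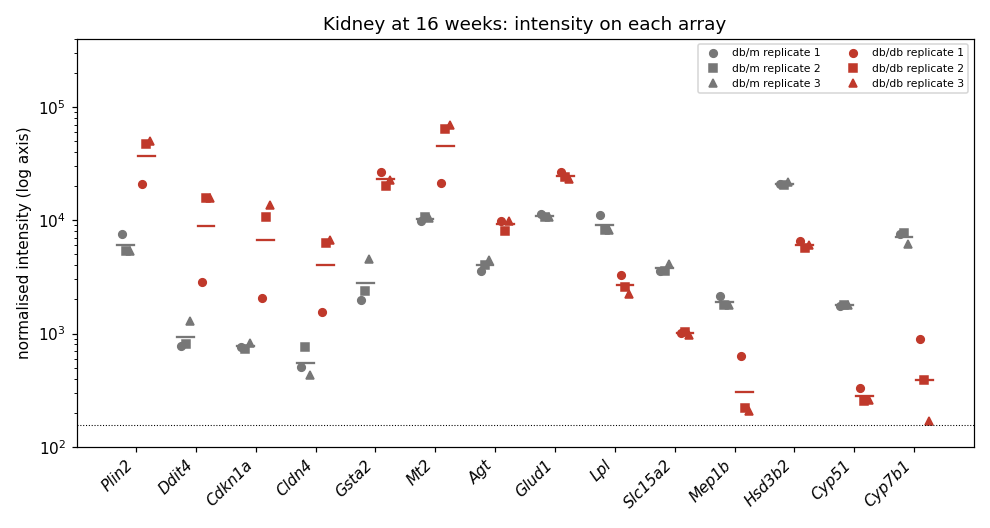
Normalised intensity (log axis) of 14 genes on each 16 week array, grey for db/m and red for db/db, with a bar at each group's geometric mean and a dotted line at the floor of 155. Replicate 1 (circle) lay between db/m and the other db/db arrays for Ddit4, Cdkn1a and Cldn4, whereas the 3 db/db arrays lay close together for Glud1, Slc15a2 and Hsd3b2.

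Of 6949 probe sets tested, db/db kidneys had 1040 higher (15%) and 1313 lower (18.9%) at a limma adjusted p under 0.05, 408 and 536 of them by at least 2-fold. Counted once per gene, by the probe set with the highest mean, 750 of 5360 genes were higher (14%) and 1083 lower (20.2%), and rose, fell and passed refer to this test throughout. The median log2 fold change of all genes was -0.074. The 3 arrays of one genotype all lay beyond the 3 of the other for 2968 probe sets (42.7%). Of the 2353 that passed, 2195 were among these. An absence of overlap in a gene that passed is therefore a description and no further support. The direction of a small change depended on how arrays were scaled: with arrays set to a common median in place of quantile normalisation, the median of all probe sets moved from -0.027 to -0.21, and 736 were higher and 1982 lower. On values as deposited 1356 were higher and 1152 lower.

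The 3 db/db arrays differed more among themselves than the 3 db/m arrays did. Over the tested probe sets the log2 values of db/db arrays correlated at 0.895 to 0.958, those of db/m arrays at 0.961 to 0.966, and those of arrays of opposite genotype at 0.835 to 0.922. Replicate 1 was the db/db array nearest to db/m: among probe sets that were higher, the median log2 difference from the db/m mean was 0.72 on replicate 1, 1.01 on replicate 2 and 0.99 on replicate 3, and among those that were lower it was -0.64, -1.03 and -1.0. It was the nearest of the 3 for 651 of the 1040 higher and 906 of the 1313 lower probe sets, and it lay within the range of the db/m arrays for 53 and 73. A change of at least 2-fold was present on all 3 db/db arrays for 181 higher and 179 lower probe sets. Without replicate 1, 1317 probe sets were higher and 1736 lower, and without replicate 2 the numbers were 579 and 869. Without replicates 2 and 3 together, which leaves 1 db/db array whose spread is assumed from the other groups, they were 351 and 460.

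**Figure D2:**
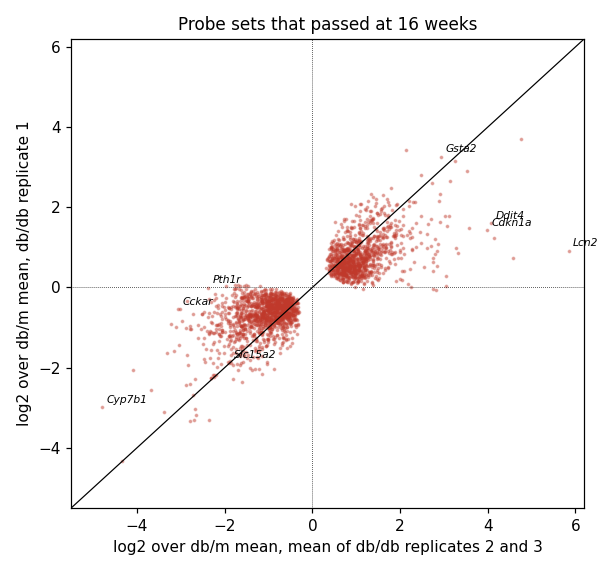
Log2 difference from the db/m mean on db/db replicate 1 (vertical) against the mean of replicates 2 and 3 (horizontal), 1 point for each of the 2353 probe sets that passed at 16 weeks, with a solid line where both are equal. The cloud lies nearer to 0 on the vertical axis, Lcn2 and Cckar are far from the line, and Gsta2 and Slc15a2 are close to it.

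RNA quality measures on the same arrays also parted the genotypes. The log2 ratio of the 3' to the 5' control probe set was 1.41, 1.5 and 1.03 for actin on the db/m arrays and 0.53, 0.53 and 0.89 on the db/db arrays. For Gapdh it was 0.29, 0.24 and -0.042 against -0.25, -0.18 and -0.17, and for pyruvate carboxylase 5.11, 4.84 and 4.84 against 1.56, 1.24 and 2.35. None of the 3 ratios overlapped between the genotypes. With their mean as a covariate in the limma fit, 0 probe sets passed, 979 had an unadjusted p under 0.05, and the lowest adjusted p was 0.146. The standard error of the probe sets that had passed rose with the covariate from a median of 0.21 to 0.49, their median size of change went from 0.89 to 0.84, and 2265 of the 2353 kept their direction. The effects of genotype and of RNA quality cannot be told apart by these arrays. In whole tissue, fewer cells of a type and less RNA per cell cannot be told apart either.

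**Figure D3:**
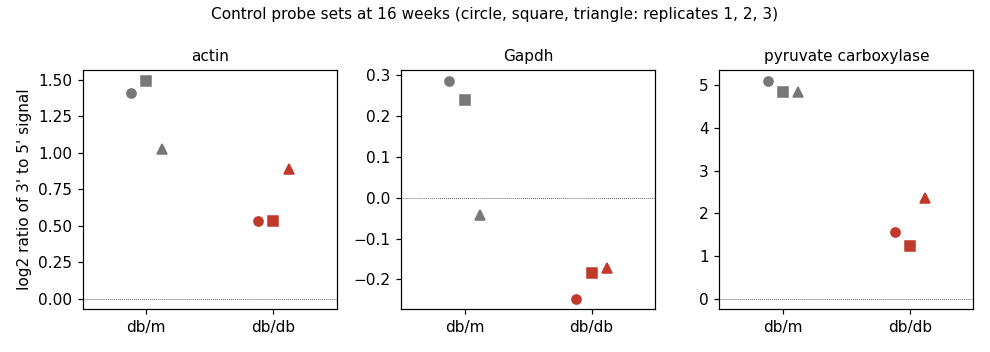
Log2 ratio of 3' to 5' signal of 3 control genes on each 16 week array, grey for db/m and red for db/db. The pyruvate carboxylase ratio lay between 4.84 and 5.11 in the db/m group and between 1.24 and 2.35 in the db/db group.

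Genes were next read by pathway and cell type, in 36 lists. A list is described by how many of its tested members passed in each direction, to be read against the 14% of all genes that were higher and the 20.2% that were lower, and by its mean log2 difference from the db/m mean on each array. Among lists with at least 10 tested members, those of glucocorticoid-responsive genes, immediate early genes and tubular injury had the largest shares higher, and the androgen-responsive list had the largest share lower. Members of several lists are counted in each. Lists and members were chosen with earlier results of these data known. Their shares therefore describe these arrays and give no independent support for a theme.

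**Figure D4:**
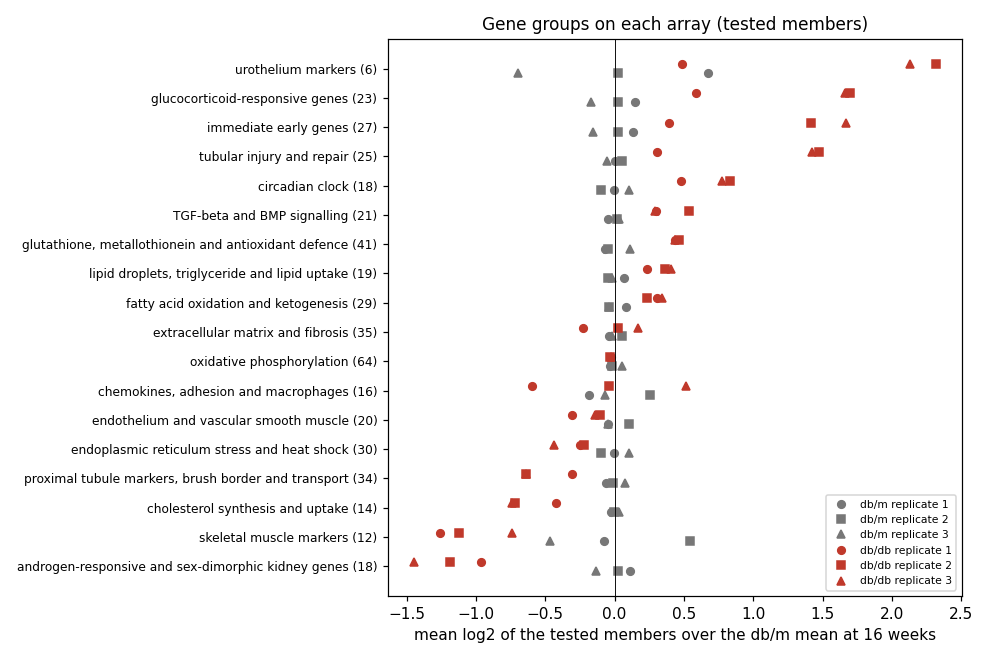
Mean log2 of each list's tested members (number in brackets) over the db/m mean on each 16 week array, grey for db/m and red for db/db, circle, square and triangle for replicates 1, 2 and 3. On the injury list the db/db arrays stood at 0.30, 1.47 and 1.42, and on the androgen-responsive list at -0.97, -1.19 and -1.45.

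Some genes of fat storage rose, the lipase Lpl fell and the lipase Pnpla2 rose. In the list of lipid droplets, triglyceride and lipid uptake, 6 of 19 tested members were higher and 2 lower (median log2 fold change 0.41). Pnpla2 was among those higher (log2 fold change 0.94, limma adjusted p = 0.0404), and its call held in only 3 of the 12 fits with 1 array left out. Beside Plin2, the droplet protein Plin4 read 25.6, 115 and 32.7 on the db/m and 677, 420.5 and 630.5 on the db/db arrays (at least 3.63-fold higher). Lpin1, a phosphatidate phosphatase of triglyceride synthesis and a cofactor of fat oxidation genes, read 1603, 1303 and 1510.2 on the db/m and 3648, 5885 and 3597 on the db/db arrays (log2 fold change 1.54, SE 0.20, limma adjusted p = 0.000547). On all 3 db/db arrays both were above the db/m arrays, and neither put replicate 1 below both others. Lpl, the lipoprotein lipase that frees fatty acids at the vessel wall, went the other way, with 11209, 8245 and 8221 on the db/m and 3287, 2565 and 2241 on the db/db arrays (log2 fold change -1.78, SE 0.27, limma adjusted p = 0.00121), although its second probe set did not pass (-0.43). The fatty acid transporter Cd36 read 479, 583 and 416 on the db/m and 275, 312 and 53.3 on the db/db arrays (log2 fold change -1.04, SE 0.27, limma adjusted p = 0.0140). Without db/m replicate 2 the call of Cd36 ended (0.0520), and the number of lower members of this list was 1 without db/m replicate 2 and 4 without db/db replicate 1. Plin4 was bright enough to be tested only through 3 db/db arrays, replicates 1 and 3 and 8 week replicate 1, so its p-value is not given. With a common median 4 were higher and 4 lower in this list.

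Of 13 tested genes of fatty acid synthesis and desaturation, Acsl4, which activates arachidonic acid, and Me1, which supplies NADPH, had the largest changes. In the list 3 members were higher and 1 lower. Acsl4 read 1348, 1142 and 1541 on the db/m and 3709.9, 3766 and 2530.1 on the db/db arrays (log2 fold change 1.30, SE 0.19, limma adjusted p = 0.000992). Me1 read 17615, 15260.3 and 11286 on the db/m and 8573, 5216 and 5583 on the db/db arrays (log2 fold change -1.20, SE 0.22, limma adjusted p = 0.00265). Their groups did not overlap, and the pair moved in opposite directions. The synthase Fasn, the desaturase Scd1 and the regulator Srebf1 did not pass, with log2 fold changes of -0.028, -0.23 and -0.10, and the list median was -0.10. Higher members numbered 1 without db/m 8 week replicate 1 or 2 or db/m replicate 1, 2 or 3 or db/db 8 week replicate 1 or 3 or db/db replicate 2, and the number lower was 2 without db/m replicate 2 or db/db replicate 1. Under the common median 3 were higher and 4 lower.

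In the list of fatty acid oxidation and ketogenesis the direction depended on the scaling. Of 29 tested members 6 were higher and 2 lower (median 0.23), and with a common median 4 were higher and 7 lower (median -0.035). Ppara, the nuclear receptor that senses fatty acids, read 1775, 2798 and 1534 on the db/m and 4666, 4484 and 8169 on the db/db arrays (log2 fold change 1.5, SE 0.29, limma adjusted p = 0.00376). Its coactivator Ppargc1a, a regulator of mitochondrial number, read 409.7, 696 and 464 on the db/m and 353, 110.3 and 66.8 on the db/db arrays (log2 fold change -1.32, SE 0.33), a lower bound of the size since 2 of the db/db values were below the floor. The receptor rose and its coactivator read lower, and for both genes the genotypes did not overlap. Slc25a20, the carnitine carrier of the inner mitochondrial membrane, read 6184, 4733 and 5720.3 on the db/m and 9134, 9558 and 10122 on the db/db arrays (log2 fold change 0.80, SE 0.15, limma adjusted p = 0.00311). The rate-limiting transferase Cpt1a (-0.0083) and the dehydrogenase Acadm (-0.34) did not pass. Without db/db replicate 3, 3 members were higher, and the number lower was 1 without db/m 8 week replicate 1 or 3 or db/m replicate 1 or 2 or db/db replicate 2 or 3. Ppargc1a was too dim to be tested without db/m replicate 2 or db/m 8 week replicate 1 or 3. It thus entered the test only through these db/m arrays, so its p-value is not given and its call, counted in the list, supports nothing here.

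Pdk4 and Cyp4a14, which the fatty acid receptor and glucocorticoids raise in other tissues, rose, and each call ended when any 1 of 3 arrays was left out. Pdk4, the kinase that shuts pyruvate dehydrogenase, read 8421, 4973 and 1684 on the db/m and 7381, 34337 and 23626 on the db/db arrays (log2 fold change 2.14, SE 0.63, limma adjusted p = 0.0242). Replicate 1 lay among the db/m arrays, and the db/m arrays themselves spread widely. Its call ended without db/db replicate 2 (0.0991), db/db replicate 3 (0.0722) or db/m replicate 3 (0.0858). Cyp4a14, a fatty acid omega-hydroxylase, read 8609, 7047 and 13835 on the db/m and 30292, 22058 and 26156 on the db/db arrays (log2 fold change 1.46, SE 0.43, limma adjusted p = 0.0243), with no overlap, and its call ended without db/db replicate 3 (0.0588), db/m replicate 1 (0.0666) or db/m replicate 2 (0.0855) and with a common median.

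Sterol synthesis was lower at some steps and not at others. In the cholesterol list 2 of 14 tested members were higher and 5 lower (median log2 fold change -0.40). Cyp51, which demethylates lanosterol, read 1759, 1773 and 1787 on the db/m and 332, 255 and 257 on the db/db arrays (log2 fold change -2.67, SE 0.16, limma adjusted p = 1.36e-05). Idi1, which isomerises isopentenyl pyrophosphate, read 3432, 4626 and 2304 on the db/m and 564, 204 and 325 on the db/db arrays (log2 fold change -3.31, SE 0.35, limma adjusted p = 0.000231). The db/db arrays of both lay far under the db/m arrays, including replicate 1. Hmgcs1 (-0.42), Sqle (-0.26), Fdft1 (0.31) and Sc5d (-0.61), which act at the entry, the middle and the end of the pathway, did not pass. The number lower was 3 without db/m replicate 1 or 3 or db/db replicate 3, 8 without db/db replicate 1 and 2 without db/db replicate 2, and the number higher was 0 without db/m replicate 1 or 3 or db/db replicate 2 or 3, 1 without db/m replicate 2 and 4 without db/db replicate 1. With a common median 0 were higher and 7 lower.

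The sterol regulatory element core CACCCCAC, searched on both strands of the 250 bases before the transcription start, was found in 1 of 14 cholesterol genes with a promoter in RefSeq's GRCm38.p6 table, Hmgcs1, and in 2.58% of all 32851 promoters. Cyp51 and Idi1 did not carry these letters in that window.

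Glucose genes were divided. Of 25 tested members 3 were higher and 3 lower (median -0.027). Pck1, a rate-limiting enzyme of glucose synthesis, read 20821, 18168 and 24693 on the db/m and 40510.3, 37330 and 32527 on the db/db arrays (log2 fold change 0.80, SE 0.17, limma adjusted p = 0.00563). Txnip, which glucose raises and which binds thioredoxin, read 9251, 7409.6 and 4439.6 on the db/m and 11823, 16279 and 19697 on the db/db arrays (log2 fold change 1.21, SE 0.27, limma adjusted p = 0.00711). Every db/db array was above every db/m array for both, although a second probe set of Txnip did not pass. The glucose-6-phosphatase gene G6pc did not pass (33287, 35604 and 30001 against 39098, 17768 and 21954, log2 fold change -0.41). Its replicate 1 was above all db/m arrays and replicates 2 and 3 were below them. The basolateral glucose transporter Slc2a2 showed the same pattern (12200.1, 11099 and 11789 against 12267, 4314 and 3902), with a limma adjusted p of 0.0494 that was over 0.05 in 11 of the 12 fits with 1 array left out (0.0562 to 0.174 in these) and a change of 0.07 without replicates 2 and 3. Slc5a1, the sodium-glucose transporter of the late proximal tubule, did not pass (1749.7, 1355 and 1553 against 3797, 2312 and 1762, log2 fold change 0.69). The number of lower members was 1 without db/m 8 week replicate 2 or 3 or db/m replicate 2 or 3 or db/db 8 week replicate 1 or db/db replicate 2 or 3, 0 without db/m replicate 1 and 7 without db/db replicate 1. Scaled to a common median, 2 were higher and 7 lower.

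The list of amino acid and one-carbon metabolism changed in both directions, and the genes described are 3 of its risen enzymes. Glud1, glutamate dehydrogenase, read 11303, 10627 and 10704 on the db/m and 26917, 24279 and 23382 on the db/db arrays (log2 fold change 1.19, SE 0.13, limma adjusted p = 0.000254). It was among the most even changes, with about the same level on the 3 db/db arrays. Got2, the mitochondrial aspartate transaminase, read 2765, 2585 and 1759 on the db/m and 3915, 5434 and 5735 on the db/db arrays (log2 fold change 1.09, SE 0.24, limma adjusted p = 0.00666). Arg2, the mitochondrial arginase, read 962, 1153 and 1533 on the db/m and 1598, 5589 and 4364 on the db/db arrays (log2 fold change 1.51, SE 0.38, limma adjusted p = 0.0124), with replicate 1 only just above the highest db/m array. In the whole list 8 of 31 tested members were higher and 6 lower (median log2 fold change 0.16), shares of 25.8% and 19.4% against 14% and 20.2% of all genes. Those higher came to 5 without db/m replicate 1 or db/db replicate 2 and 4 without db/m replicate 2 or db/db replicate 3, and the number lower was 3 without db/m replicate 1 or 3 or db/db replicate 2. By common median scaling 4 were higher and 10 lower.

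Brush border and transport genes of the proximal tubule fell. In the list 14 of 34 tested members were lower (41.2%, against 20.2% of all genes) and 1 was higher (median -0.42). Mep1b, a brush border metalloprotease subunit, read 2145, 1774 and 1791 on the db/m and 628, 218 and 207 on the db/db arrays (log2 fold change -2.64, SE 0.34, limma adjusted p = 0.000484). Slc1a1, the glutamate transporter of the brush border, read 6117, 5092 and 6617 on the db/m and 2689, 1028 and 1476 on the db/db arrays (log2 fold change -1.89, SE 0.28, limma adjusted p = 0.00103), although its second probe set read 0.12 and did not pass. Keg1, a glycine acyltransferase of the kidney, read 25396, 24763 and 24025 on the db/m and 12878, 6042 and 5036 on the db/db arrays (log2 fold change -1.76, SE 0.28, limma adjusted p = 0.00130), and the dipeptidase Cndp2 read 16279, 11209 and 10567 on the db/m and 4060.2, 4060.2 and 4733 on the db/db arrays (log2 fold change -1.54, SE 0.21, limma adjusted p = 0.000715). These groups did not overlap, and replicate 1 was nearest to db/m for Mep1b, Slc1a1 and Keg1. The sulfate transporter Slc26a1 read 1217, 1602 and 1792 on the db/m and 964, 85.1 and 337 on the db/db arrays (log2 fold change -2.04, SE 0.52, limma adjusted p = 0.0125).

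Other defining genes of this segment did not pass. The phosphate transporter Slc34a1 had a log2 fold change of 0.10, the endocytic receptor Lrp2 -0.26, the water channel Aqp1 -0.089 and the peptidase Dpp4 -0.039. On the mean of the list, db/db replicate 1 stood at -0.31 and replicates 2 and 3 at -0.64 and -0.64. Without replicates 2 and 3, 7 members were lower. The number higher was 2 without db/m 8 week replicate 1 or db/m replicate 2 and 3 without db/db replicate 3.

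In the distal tubule a calcium-binding protein rose, and a growth factor precursor and a prostaglandin receptor fell. S100g, the small calbindin that carries calcium through distal cells, read 5032, 5005 and 5754 on the db/m and 13771, 12151 and 9896 on the db/db arrays (log2 fold change 1.17, SE 0.15, limma adjusted p = 0.000492). Egf, the epidermal growth factor precursor of the distal tubule, read 31426, 32188 and 35791 on the db/m and 23466, 21841 and 20495 on the db/db arrays (log2 fold change -0.60, SE 0.12, limma adjusted p = 0.00443). Ptger3, a prostaglandin E2 receptor of the thick ascending limb, read 615, 451 and 971 on the db/m and 299.9, 119 and 97.7 on the db/db arrays (log2 fold change -1.74, SE 0.36, limma adjusted p = 0.00497), a lower bound of the size since replicates 2 and 3 were below the floor. None of these overlapped, and S100g was highest on replicate 1. Kcnj1, the potassium channel of the loop, read 5747, 5167 and 7334 on the db/m and 3937, 2900.5 and 2652 on the db/db arrays (log2 fold change -0.95, SE 0.19, limma adjusted p = 0.00376), whereas its second probe set read 1.09 and did not pass. The anti-ageing gene Kl read 10377, 9418 and 10387 on the db/m and 8169, 6494 and 5939 on the db/db arrays (log2 fold change -0.56, SE 0.15, limma adjusted p = 0.0148), a call that ended without db/db replicate 2 (0.0528). The loop transporter Slc12a1 (0.22) and Umod (-0.24, limma adjusted p = 0.162) did not pass. In the list, 3 of 15 tested members were higher and 4 lower (median -0.089), and the number higher was 1 without db/m replicate 1. With a common median 1 were higher and 6 lower.

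In the collecting duct list 4 of 14 tested members were higher and 2 lower. Avpr2, the vasopressin receptor that directs water recovery, read 817, 814 and 1353 on the db/m and 506, 365 and 426 on the db/db arrays (log2 fold change -1.17, SE 0.22, limma adjusted p = 0.00312). Its target, the water channel Aqp2, did not pass (log2 fold change 0.72). Cldn4, a tight junction protein of the collecting duct and of injured tubules, read 502, 765 and 432 on the db/m and 1546, 6343 and 6751 on the db/db arrays (log2 fold change 2.88, SE 0.50, limma adjusted p = 0.00195), with replicate 1 between db/m and the other db/db arrays. The number higher was 2 without db/m replicate 2 or db/db replicate 2, and the number lower was 1 without db/m replicate 2 or db/db replicate 2. Under the common median 2 were higher and 2 lower.

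Markers of urothelium, the lining of the renal pelvis, moved with Cldn4 and with the keratins of the injury list. Krt20 stands in both the urothelium and the injury list, and Cldn4 is in the injury list too. The agreement is therefore in part the same probe set counted in each. Of 6 tested urothelium markers 3 were higher (Krt20, Sprr1a and Upk2) and 0 lower, with 0 lower also at an unadjusted limma p under 0.05. The summed intensity of the 6 was 5443, 3089 and 2074 on the db/m and 4142, 19599.7 and 17351 on the db/db arrays. The defining markers Krt5, Krt13, Krt15, Trp63 and Sprr2f were too dim to be tested. Higher members numbered 1 without db/m replicate 2 or 3 or db/db replicate 2 or 3 and 5 without db/db replicate 1. The share of this tissue in the changes of Cldn4, Krt20 and the injury list was not tested.

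In the glomerulus, podocytes wrap the capillaries and are held together by slit diaphragm proteins. Cd2ap, which anchors the slit diaphragm, read 319, 283 and 326 on the db/m and 562, 1603 and 796 on the db/db arrays (log2 fold change 1.54, SE 0.30, limma adjusted p = 0.00353), above db/m on every array, and Tcf21, a transcription factor of podocytes and stroma, read 655, 779 and 992 on the db/m and 580.4, 372 and 195 on the db/db arrays (log2 fold change -1.20, SE 0.33, limma adjusted p = 0.0177). The call of Tcf21 ended without db/m replicate 3 (0.0628). The podocyte genes Synpo (0.038), Ptpro (-0.66) and Vegfa (-0.52) did not pass, and Wt1 was too dim to be tested. The list median was -0.19 over 10 tested members, of which 1 was higher and 1 lower, and the number lower was 0 without db/m replicate 3 and 4 without db/db replicate 1.

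In the endothelial list 5 of 20 tested members were lower, a share of 25% that is near the 20.2% of all genes, and 1 was higher. Eng, endoglin, a co-receptor for TGF-beta and BMP on endothelium, read 11769, 14961 and 10153 on the db/m and 4996, 5294 and 5776 on the db/db arrays (log2 fold change -1.18, SE 0.22, limma adjusted p = 0.00311). Tek, the angiopoietin receptor, read 667, 586 and 781 on the db/m and 500.4, 254 and 263 on the db/db arrays (log2 fold change -1.06, SE 0.25, limma adjusted p = 0.00835). Neither overlapped with db/m, and replicate 1 of Eng was as low as the others. The endothelial markers Pecam1 (0.33) and Cdh5 (-0.28) did not pass. Without db/m replicate 2, 2 members of the list were lower, and the number higher was 0 without db/m 8 week replicate 1, 2 or 3 or db/m replicate 1 or 3 or db/db 8 week replicate 2 or 3 or db/db replicate 2 or 3. The single higher member was Edn1, endothelin. It was bright enough to be tested only through db/db replicates 2 and 3 and db/db 8 week replicate 3. Its p-values are therefore not given, and its call, counted in the list, supports nothing here. Among the fits with 1 array left out in which it was tested, it passed only without db/db replicate 1 or db/db 8 week replicate 1. Scaled to a common median, 1 were higher and 9 lower.

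Basement membrane laminins changed one by one. Lama3, an epithelial laminin chain, read 1082, 997 and 833 on the db/m and 259.6, 219 and 182 on the db/db arrays (log2 fold change -2.14, SE 0.18, limma adjusted p = 8.49e-05). Lama5, the chain of the mature glomerular basement membrane, read 2311, 2019.8 and 2058 on the db/m and 3437, 4035 and 3937 on the db/db arrays (log2 fold change 0.84, SE 0.14, limma adjusted p = 0.00202), and its second probe set did not pass (0.49). Lamc1, the gamma chain common to most laminins, read 823, 337 and 453 on the db/m and 1193, 1509 and 1714 on the db/db arrays (log2 fold change 1.54, SE 0.36, limma adjusted p = 0.00843), and Lama1, a chain of the tubular basement membrane, read 684, 924 and 849.8 on the db/m and 437, 438 and 468 on the db/db arrays (log2 fold change -0.86, SE 0.19, limma adjusted p = 0.00710). All 4 were free of overlap. Serpinh1, the chaperone of collagen folding, read 2419.8, 2802 and 2761 on the db/m and 1514, 1299.7 and 1045 on the db/db arrays (log2 fold change -1.06, SE 0.20, limma adjusted p = 0.00315).

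Among collagens, Col1a2, a chain of type I collagen, read 2841, 2636 and 2088 on the db/m and 3559.9, 4862 and 5604 on the db/db arrays (log2 fold change 0.88, SE 0.23, limma adjusted p = 0.0134), and its second probe set read -0.42 and did not pass. Col3a1, the chain of type III collagen, read 512, 656 and 384 on the db/m and 215, 389 and 198 on the db/db arrays (log2 fold change -0.99, SE 0.34, limma adjusted p = 0.0452), with overlap on db/db replicate 2, and its call ended without db/db replicate 1 (0.0925), db/db replicate 3 (0.138), db/db 8 week replicate 1 (0.0582), db/db 8 week replicate 2 (0.0578), db/db 8 week replicate 3 (0.0580), db/m replicate 1 (0.0963), db/m replicate 2 (0.147) or db/m 8 week replicate 3 (0.0509). Other matrix genes, named here for their use in diabetic nephropathy, did not pass. Fn1, fibronectin, read 872, 927 and 904 on the db/m and 461, 910.4 and 1379 on the db/db arrays (log2 fold change -0.11, SE 0.30), and replicates 1 and 3 of db/db lay on opposite sides of all db/m arrays. Col4a1, a chain of type IV collagen, had a log2 fold change of 0.35 (SE 0.18), and Ccn2, connective tissue growth factor, 0.056 (SE 0.24). Of 35 tested matrix genes 5 were higher and 7 lower (median 0.064), shares of 14.3% and 20% against 14% and 20.2% of all genes. Those higher came to 3 without db/m replicate 1 or 3 or db/db replicate 2 or 3 and 10 without db/db replicate 1. By common median scaling 4 were higher and 10 lower.

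Members of TGF-beta and BMP signalling changed in both directions. Tsc22d1, a TGF-beta-induced leucine zipper gene, read 7785, 7381 and 8349 on the db/m and 19279, 38856 and 25702 on the db/db arrays (log2 fold change 1.78, SE 0.21, limma adjusted p = 0.000381). Id1, a direct target of BMP signalling, read 2079.8, 1953 and 1150 on the db/m and 4638, 3364 and 3738 on the db/db arrays (log2 fold change 1.21, SE 0.23, limma adjusted p = 0.00311). The ligand Bmp6 read 3351, 3963 and 4029.5 on the db/m and 6888, 7196 and 6758 on the db/db arrays (log2 fold change 0.88, SE 0.23, limma adjusted p = 0.0136). These 3 genes had no overlap between genotypes, and Id1 was highest on replicate 1. The 2 lower members were Fst, the activin antagonist follistatin (420.4, 504 and 1030 on the db/m and 461, 238 and 222 on the db/db arrays, log2 fold change -1.05, SE 0.34, limma adjusted p = 0.0337), and Id4, another target of BMP signalling (1449, 1635 and 1598 on the db/m and 1456, 695 and 685 on the db/db arrays, log2 fold change -0.82, SE 0.26, limma adjusted p = 0.0304). Both overlapped with db/m, the call of Fst ended without db/db replicate 2 (0.115), db/db replicate 3 (0.109) or db/m replicate 3 (0.116), and that of Id4 without db/db replicate 2 (0.117), db/db replicate 3 (0.102), db/m replicate 1 (0.0561), db/m replicate 2 (0.0808) or db/m replicate 3 (0.0735). Of 21 tested members 7 were higher (33.3%) and 2 lower (median 0.47), while Tgfb1 was too dim to be tested. The number higher was 4 without db/m replicate 1 or 2 or db/db replicate 2, the number lower was 1 without db/m replicate 1 or 2 and 0 without db/m replicate 3 or db/db replicate 2 or 3, and the call of Bmp6 ended with a common median. With a common median 4 were higher and 3 lower.

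Tubular injury genes rose steeply on db/db replicates 2 and 3 and less on replicate 1. Cdkn1a, the cell cycle inhibitor p21, read 765, 728 and 832 on the db/m and 2079, 10791 and 13689 on the db/db arrays (log2 fold change 3.12, SE 0.57, limma adjusted p = 0.00279), and its second probe set had a log2 fold change of 1.63 (limma adjusted p = 0.0504). Lcn2, a secreted marker of tubular stress, read 266, 259 and 437 on the db/m and 588, 18421 and 17308 on the db/db arrays (log2 fold change 4.20, SE 1.00), and its second probe set read 0.26 and did not pass. Replicate 1 of Lcn2 was only just above the highest db/m array, and the probe set was bright enough to be tested only through the 3 db/db arrays, so its p-value is not given and its call, counted in the lists, supports nothing here. Sox4, a transcription factor of regenerating epithelium, read 1132, 1178 and 975 on the db/m and 1806, 8435 and 6489.6 on the db/db arrays (log2 fold change 2.08, SE 0.44, limma adjusted p = 0.00544). Lrg1, a leucine-rich glycoprotein of the acute phase, read 671, 402 and 505 on the db/m and 1769, 4934 and 4065 on the db/db arrays (log2 fold change 2.67, SE 0.32, limma adjusted p = 0.000391). In the list 13 of 25 tested members were higher and 2 lower (median log2 fold change 0.79), a share of 52.0% higher against 14% of all genes. Higher members numbered 7 without db/db replicate 2 or 3, and 3 without both. In 9 of the 12 fits with 1 array left out, all but those without db/m replicate 3 or db/db 8 week replicate 1 or 3, 1 member was lower. Other epithelial stress genes of the list, the annexins Anxa1 (0.41) and Anxa2 (0.54) and the adhesion gene Vcam1 (0.28), did not pass.

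Genes of the immediate early class, switched on quickly by growth factors and stress, rose mainly on the same 2 db/db arrays. Of 27 tested members 16 were higher (59.3%) and 0 lower, also 0 lower at an unadjusted limma p under 0.05 (median 1.21). The list mean stood at 0.39, 1.42 and 1.67 on the db/db arrays, with db/m replicates at 0.13, 0.022 and -0.15. Rhob, a small GTPase, read 4419, 3486 and 3644 on the db/m and 8092, 35791 and 21453 on the db/db arrays (log2 fold change 2.26, SE 0.42, limma adjusted p = 0.00283). Junb, a subunit of the AP-1 transcription factor, read 298, 929 and 641 on the db/m and 1618, 3271 and 6733 on the db/db arrays (log2 fold change 2.55, SE 0.50, limma adjusted p = 0.00368), and Gadd45g, a stress sensor that slows the cell cycle, read 1059.5, 1399 and 787 on the db/m and 2133, 4789.5 and 6151 on the db/db arrays (log2 fold change 1.92, SE 0.35, limma adjusted p = 0.00279). For each of these replicate 1 lay above all db/m arrays and below replicates 2 and 3. Those higher came to 9 without db/m replicate 2 or db/db replicate 3, 10 without db/m replicate 3 and 7 without db/db replicate 2, and 2 without replicates 2 and 3 together.

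Btg2, an antiproliferative gene that follows p53 and cyclic AMP, carries the cyclic AMP response element TGACGTCA. It read 2612, 2078 and 1983 on the db/m and 2932, 14085 and 15562 on the db/db arrays (log2 fold change 1.97, SE 0.49, limma adjusted p = 0.0119), replicate 1 being close to db/m, and its call ended without db/db replicate 2 (0.0511). The element was searched on both strands of the 250 bases before each transcription start in RefSeq's GRCm38.p6 promoters. It was present in 3 of 30 immediate early genes with a promoter, Btg2, Dusp1 and Maff, and in 1.55% of all 32851 promoters. The CArG box of serum response genes was present in 2 of 30, Egr2 and Zfp36, and in 1.47% of all. A match is a description of the letters only. The promoter of Btg2 (chr1:134079156-134079405, minus strand) is shown because the element lies in it, 166 bases before the start, with the element in capitals:
Btg2: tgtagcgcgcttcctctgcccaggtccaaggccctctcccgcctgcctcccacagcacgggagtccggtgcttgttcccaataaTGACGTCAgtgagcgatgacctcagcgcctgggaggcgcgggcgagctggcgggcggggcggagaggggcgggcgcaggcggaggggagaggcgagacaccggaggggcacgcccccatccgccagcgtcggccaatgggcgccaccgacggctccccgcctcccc

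Glucocorticoid-responsive genes had the largest share of members that rose among lists of at least 10. Of 23 tested members 16 were higher (69.6%) and 2 lower (median 1.26). Of the 28 members on the array, tested or not, 15 stand in another list too, among them Lcn2, Cdkn1a and the metallothioneins. Zbtb16, a zinc finger repressor, read 2682, 1559 and 629 on the db/m and 3852, 6425 and 6860.3 on the db/db arrays (log2 fold change 2.00, SE 0.42, limma adjusted p = 0.00481), with a wide spread among the db/m arrays. Sgk1, a kinase that promotes sodium recovery, read 4786, 3719 and 5762 on the db/m and 10236, 11050.5 and 7809 on the db/db arrays (log2 fold change 1.04, SE 0.28, limma adjusted p = 0.0174). It was higher on all 3 db/db arrays, and its call ended without db/db replicate 2 (0.0653) or db/m replicate 2 (0.0646) and with a common median. The list mean stood at 0.59, 1.69 and 1.66 on the db/db arrays. The number higher was 10 without db/m replicate 3, 7 without db/db replicate 2 and 9 without db/db replicate 3, and 3 without replicates 2 and 3 together, and the number lower was 1 without db/m 8 week replicate 2 or db/m replicate 3 or db/db 8 week replicate 3 or db/db replicate 3 and 0 without db/m replicate 1 or 2 or db/db replicate 2.

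A glucocorticoid response element, an inverted repeat of AGAACA with 3 bases between both copies, was searched on both strands of the same promoters. Only 3 of 32851 promoters (0.00913%) held it, and 1 of them was a promoter of Sgk1. The half-site AGAACA alone was present in 4 of 23 genes of the list, Bcl6, Sgk1, Sult1a1 and Tsc22d3, and in 16.1% of all promoters. The Sgk1 promoter with the repeat (chr10:21993640-21993889, plus strand) is shown because the repeat was so rare, with the repeat, its gap included, in capitals 189 bases before the start:
Sgk1: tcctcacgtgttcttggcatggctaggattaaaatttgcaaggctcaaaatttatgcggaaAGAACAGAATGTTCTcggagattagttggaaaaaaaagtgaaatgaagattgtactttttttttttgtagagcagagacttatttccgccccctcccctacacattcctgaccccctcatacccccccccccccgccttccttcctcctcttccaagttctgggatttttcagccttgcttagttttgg

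Several clock genes rose. In the list 8 of 18 tested members were higher (44.4%) and 0 lower, also 0 lower at an unadjusted limma p under 0.05 (median 0.64). Per1, a repressor of the clock that light and glucocorticoids induce, read 672, 752 and 1189.6 on the db/m and 2044, 2215 and 2231 on the db/db arrays (log2 fold change 1.36, SE 0.26, limma adjusted p = 0.00333). Wee1, a mitotic kinase under clock control, read 517, 360.5 and 626 on the db/m and 1002, 1711 and 1306 on the db/db arrays (log2 fold change 1.42, SE 0.23, limma adjusted p = 0.00154). Csnk1d, the casein kinase that sets the pace of the period proteins, read 3803, 3467 and 3613 on the db/m and 6259, 8898 and 8898 on the db/db arrays (log2 fold change 1.13, SE 0.16, limma adjusted p = 0.000788), and of its 3 other probe sets 1 also rose (2.11) and 2 did not pass (-0.20 and 0.25). The repressor Bhlhe40 read 1893, 1626 and 1452 on the db/m and 2877, 4535 and 3807 on the db/db arrays (log2 fold change 1.16, SE 0.22, limma adjusted p = 0.00330). None overlapped with db/m, and Per1 was nearly equal on the 3 db/db arrays. The core activators Arntl (0.43) and Clock (-0.059) and the output gene Dbp (0.074) did not pass. With 1 array left out the number higher was 6 to 12. The sample details used here hold no time of day at collection, and its part in these changes was not tested.

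The E-box CACGTG, the letters that the clock's activators bind, was present in the window of 3 of 16 clock genes with a promoter, Cry1, Per1 and Tef, and in 6.02% of all promoters. Of these 3 Per1 was the 1 that rose. Its promoter (chr11:69098699-69098948, plus strand) is shown with the E-box in capitals, 166 bases before the start:
Per1: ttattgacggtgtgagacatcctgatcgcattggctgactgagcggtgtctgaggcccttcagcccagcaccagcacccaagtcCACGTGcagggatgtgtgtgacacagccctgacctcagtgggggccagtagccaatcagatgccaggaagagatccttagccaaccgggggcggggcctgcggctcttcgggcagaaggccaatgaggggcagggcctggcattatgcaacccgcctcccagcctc

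Antioxidant and detoxifying genes moved in both directions, with the largest changes upwards. In the list 14 of 41 tested members were higher and 6 lower (median log2 fold change 0.23). With a common median 13 were higher and 9 lower and the median was -0.046. The list mean was almost the same on the 3 db/db arrays, at 0.43, 0.47 and 0.44. Mgst1, a microsomal glutathione transferase, read 2649, 3307 and 3308 on the db/m and 9741, 8550 and 6934 on the db/db arrays (log2 fold change 1.44, SE 0.20, limma adjusted p = 0.000743). Nqo1, a quinone reductase, read 1470.5, 1419.9 and 2081 on the db/m and 6563, 3718 and 4029.5 on the db/db arrays (log2 fold change 1.5, SE 0.22, limma adjusted p = 0.000900), and Srxn1, which repairs peroxiredoxins, read 966, 843 and 1295 on the db/m and 3842, 3046 and 2963 on the db/db arrays (log2 fold change 1.68, SE 0.27, limma adjusted p = 0.00145), although a second probe set of Srxn1 did not pass (0.67). These 3 genes, textbook targets of the factor Nrf2, were all highest on replicate 1. Ephx1, the microsomal epoxide hydrolase, was highest there too (1320.4, 1359 and 1212 on the db/m and 4436, 2463 and 2985 on the db/db arrays, log2 fold change 1.30, SE 0.23, limma adjusted p = 0.00227). The Nrf2 gene itself, Nfe2l2 (0.40), the glutathione synthesis genes Gclc (0.23) and Gclm (-0.40) and the haem oxygenase Hmox1 (1.04) did not pass.

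Metallothioneins bind zinc and copper and are induced by both metals and by glucocorticoids. Mt1 read 11099, 13909.6 and 15820.3 on the db/m and 32041, 57116 and 73990.1 on the db/db arrays (log2 fold change 1.93, SE 0.27, limma adjusted p = 0.000756). Mt2 read 9787, 10689.9 and 10462 on the db/m and 21178, 64130.5 and 70089 on the db/db arrays (log2 fold change 2.15, SE 0.37, limma adjusted p = 0.00192). Both were above db/m on all db/db arrays and lowest there on replicate 1. The metal response element, searched as TGCACNC and TGCGCNC on both strands, was present in the window of both genes and in 21.4% of all promoters. The 2 promoters are shown because the genes lie side by side on chromosome 8 and rose together. That of Mt1 is chr8:94178839-94179088, plus strand, with 1 match, and that of Mt2 is chr8:94172368-94172617, plus strand, with 3, and matches of either strand are in capitals:
Mt1: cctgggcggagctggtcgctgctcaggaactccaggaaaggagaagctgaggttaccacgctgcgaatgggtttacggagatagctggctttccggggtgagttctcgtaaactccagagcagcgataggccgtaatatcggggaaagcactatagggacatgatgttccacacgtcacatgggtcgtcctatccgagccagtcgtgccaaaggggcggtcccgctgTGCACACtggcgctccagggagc
Mt2: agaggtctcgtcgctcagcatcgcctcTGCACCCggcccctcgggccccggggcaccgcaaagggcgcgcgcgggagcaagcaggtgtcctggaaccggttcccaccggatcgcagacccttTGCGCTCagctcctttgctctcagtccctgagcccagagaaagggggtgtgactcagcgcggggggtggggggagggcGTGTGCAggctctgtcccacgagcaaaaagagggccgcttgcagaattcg

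The cytosolic heat shock genes Hsph1 and Dnajb1 fell. Among genes of the endoplasmic reticulum and its stress response, the chaperone Dnajb9 rose and Ddit3 fell. Hsph1, a large cochaperone of the Hsp70 family, read 7443, 6563 and 7263 on the db/m and 3058, 2359 and 2088 on the db/db arrays (log2 fold change -1.52, SE 0.19, limma adjusted p = 0.000442). Dnajb1, the Hsp40 chaperone, read 1952, 1820.2 and 2818 on the db/m and 1025, 614 and 647 on the db/db arrays (log2 fold change -1.54, SE 0.22, limma adjusted p = 0.000886). Every db/db array lay below every db/m array for both. Hspa4 fell by its brightest probe set (4200.5, 4188 and 4229 against 2034, 874 and 588, log2 fold change -2.05, SE 0.34, limma adjusted p = 0.00162), but 4 other probe sets of Hspa4 read 0.72, 0.69, 0.057 and -0.018, the first 2 of which passed in the opposite direction. Dnajb9, a chaperone of the endoplasmic reticulum, rose (1259.6, 1491 and 1950.1 on the db/m and 4240.1, 7394 and 3639.9 on the db/db arrays, log2 fold change 1.65, SE 0.26, limma adjusted p = 0.00127). Of 30 tested members 4 were higher and 11 lower (36.7%, median -0.34), and the number lower was 7 without db/m replicate 1, 2 or 3 or db/db replicate 3. Ddit3 was among those lower, and its call held in 7 of the 12 fits with 1 array left out (highest limma adjusted p = 0.122). The stress sensors Xbp1 (0.41) and Atf4 (-0.36) did not pass.

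The renin-angiotensin system moved apart at substrate and enzyme. Agt, angiotensinogen, the precursor that proximal tubule cells also make, read 3541, 4043 and 4477 on the db/m and 9896, 8075 and 9833 on the db/db arrays (log2 fold change 1.21, SE 0.17, limma adjusted p = 0.000834). Ace, the converting enzyme, read 1373, 1164 and 846 on the db/m and 606, 520.2 and 525 on the db/db arrays (log2 fold change -1.01, SE 0.18, limma adjusted p = 0.00214). For both the genotypes did not overlap, and replicate 1 lay with the other db/db arrays. Alox15, a lipoxygenase, read 4407, 2758 and 2213 on the db/m and 304, 534 and 398 on the db/db arrays (log2 fold change -2.90, SE 0.30, limma adjusted p = 0.000231), and Tbxas1, thromboxane synthase, read 999, 1598 and 963 on the db/m and 462, 636 and 508 on the db/db arrays (log2 fold change -1.12, SE 0.23, limma adjusted p = 0.00455). Of 15 tested members of the list 5 were higher and 3 lower, and 3 were higher without db/m replicate 2.

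In insulin and growth factor signalling, 4 of 24 tested members were higher and 5 lower. Igf1 read 2634, 2856 and 1757 on the db/m and 4236, 5628 and 4477 on the db/db arrays (log2 fold change 1.00, SE 0.22, limma adjusted p = 0.00628), and Pik3r1, the regulatory subunit of phosphoinositide 3-kinase, read 133, 288 and 242 on the db/m and 583, 925 and 1121 on the db/db arrays (log2 fold change 1.94, SE 0.33, limma adjusted p = 0.00178). Ghr, the growth hormone receptor, read 12698, 12526 and 12129 on the db/m and 6663, 5802 and 5688 on the db/db arrays (log2 fold change -1.04, SE 0.13, limma adjusted p = 0.000477), although a second probe set did not pass. Igfals, the acid-labile subunit that holds Igf1 in the circulation, read 1378, 1582 and 1434 on the db/m and 775, 106 and 131 on the db/db arrays (log2 fold change -2.46, SE 0.50, limma adjusted p = 0.00418), where replicates 2 and 3 were below the floor, so that the size is a lower bound. All 4 genes were free of overlap. Igf1r (-0.012), Akt1 (-0.41) and Mtor (-0.10) did not pass. Under the common median 3 were higher and 8 lower.

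Androgen-responsive and sex-dimorphic genes had the largest share that fell, 12 of 18 tested members (66.7%, against 20.2% of all genes), with 0 higher and 1 higher at an unadjusted limma p under 0.05 (median -0.89). Odc1, ornithine decarboxylase, read 10198, 9433 and 6259 on the db/m and 2358, 2082 and 2507 on the db/db arrays (log2 fold change -1.87, SE 0.23, limma adjusted p = 0.000400). Timd2, a ferritin receptor, read 2891, 3018 and 2246 on the db/m and 707, 971 and 612 on the db/db arrays (log2 fold change -1.85, SE 0.23, limma adjusted p = 0.000477). Hsd3b2 and Hsd3b6, steroid dehydrogenases whose near-identical family members can share probes, read 20946, 20636 and 21737 on the db/m and 6606, 5638 and 6042 on the db/db arrays (log2 fold change -1.79, SE 0.12, limma adjusted p = 1.76e-05) and 1354, 1433 and 1417 on the db/m and 558, 602 and 566 on the db/db arrays (log2 fold change -1.29, SE 0.17, limma adjusted p = 0.000492). No db/db array of these reached the db/m range. Hsd3b6 is not a member of the list and is not in its counts. Pzp, a protease inhibitor, read 4990.5, 4862 and 2854 on the db/m and 986, 373 and 118 on the db/db arrays (log2 fold change -3.41, SE 0.50, limma adjusted p = 0.000964), its replicate 3 being below the floor. Kap, the classical androgen-regulated protein of proximal tubules, did not pass (log2 fold change -0.17). With 1 array left out the number lower was 10 to 12 and the number higher was 1 without db/m 8 week replicate 3 or db/db replicate 1.

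Vitamin D and mineral genes showed no common direction, with 3 of 14 tested members higher and 3 lower. Cyp27b1, which makes active vitamin D, read 592, 1950.1 and 5226 on the db/m and 1362, 570.2 and 299.9 on the db/db arrays and did not pass (log2 fold change -1.56, SE 0.70). Its db/m arrays alone ran from 592 to 5226. At 8 weeks its log2 fold change was 3.36 (SE 0.70), and the difference between ages did not pass (-4.92, SE 0.99, limma adjusted p = 0.0769). Higher members numbered 1 without db/m replicate 1, and the number lower was 1 without db/m replicate 2 or 3 or db/db replicate 3 and 0 without db/db replicate 2. Scaled to a common median, 1 were higher and 4 lower.

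Acute phase and coagulation genes changed in both directions. Serpina3n, a protease inhibitor of the acute phase, read 587, 187 and 163 on the db/m and 806, 1442 and 2717 on the db/db arrays (log2 fold change 2.49, SE 0.49, limma adjusted p = 0.00376). Serpinf2, the plasmin inhibitor that kidney as well as liver makes, read 5380.2, 4717 and 5709 on the db/m and 1692, 1588 and 904 on the db/db arrays (log2 fold change -1.97, SE 0.24, limma adjusted p = 0.000371), whereas its second probe set read 0.43 and did not pass. Of 18 tested members 5 were higher and 4 lower, and 3 were higher without db/db replicate 2 or 3. The complement genes C1qa (-0.41) and C1qb (-0.80) did not pass.

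No tested macrophage or chemokine gene was higher. Csf1r, the receptor that macrophages depend on, read 2058, 1867 and 1896 on the db/m and 798, 729 and 1278 on the db/db arrays (log2 fold change -1.10, SE 0.21, limma adjusted p = 0.00353), and the inhibitory antibody receptor Fcgr2b read 975, 1677 and 1129 on the db/m and 645, 256 and 474 on the db/db arrays (log2 fold change -1.52, SE 0.35, limma adjusted p = 0.00762). Of 16 tested members of the list of chemokines, adhesion and macrophages, these 2 were lower and 0 were higher, with 2 higher at an unadjusted limma p under 0.05 and 2 higher by limma on values as deposited. Without db/db replicate 1, 5 were higher: the list mean was -0.59, -0.043 and 0.52 on the db/db arrays, so that replicate 1 lay below and replicate 3 above the db/m arrays. Cd68 (0.77), Lyz2 (0.31) and Cd14 (1.21) did not pass, and 35 genes of this list on the array, Ccl2 among them, were too dim to be tested. Antigen presentation genes varied among arrays of 1 genotype, with summed intensities of 122762, 216172 and 112231 on the db/m and 84776, 116257 and 157312 on the db/db arrays.

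Among cell cycle genes 7 of 22 tested members were higher and 1 lower. Foxm1, a driver of mitotic genes, read 1246, 721 and 1528 on the db/m and 2859.7, 5824 and 4675 on the db/db arrays (log2 fold change 1.94, SE 0.47, limma adjusted p = 0.00965), and Ccng1, a target of p53, read 1567, 1646 and 1961 on the db/m and 3183, 3248 and 2492 on the db/db arrays (log2 fold change 0.78, SE 0.18, limma adjusted p = 0.00738). The proliferation markers Mki67 (0.40) and Pcna (0.13) did not pass. Those higher came to 3 without db/m replicate 2 or db/db replicate 2 or 3. The number lower was 0 without db/m 8 week replicate 2 or 3 or db/m replicate 1, 2 or 3 or db/db 8 week replicate 3 or db/db replicate 2 or 3.

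Large housekeeping groups had means near 0 after quantile normalisation. Of 64 tested genes of oxidative phosphorylation 6 were higher and 10 lower, shares of 9.38% and 15.6%, and the list mean was -0.027, -0.033 and -0.027 on the db/db arrays. Cox8c, a subunit of cytochrome oxidase, read 1833, 1766 and 1825 on the db/m and 3195, 3732 and 4254 on the db/db arrays (log2 fold change 1.03, SE 0.16, limma adjusted p = 0.00126), and Ndufc1, a subunit of complex I, read 17682, 17959 and 14905 on the db/m and 9937, 11425 and 9484 on the db/db arrays (log2 fold change -0.71, SE 0.13, limma adjusted p = 0.00284). Of 23 tested ribosomal protein genes 2 were higher and 3 lower. Rpl13a fell (2907, 3391 and 3116 on the db/m and 1105, 1189 and 1359 on the db/db arrays, log2 fold change -1.37, SE 0.15, limma adjusted p = 0.000254), but ribosomal genes have many near-identical copies that can share probes. The number of oxidative phosphorylation genes higher was 3 without db/m replicate 1 or db/db replicate 2 and 1 without db/m replicate 2, and the number lower was 4 without db/m replicate 2 or 3 and 5 without db/db replicate 2. The number of ribosomal protein genes higher was 4 without db/db replicate 1, and the number lower was 1 without db/m replicate 3 or db/db replicate 2 or 3. Of the oxidative phosphorylation genes 3 were higher and 19 lower with a common median. The same scaling gave ribosomal protein genes of which 2 were higher and 10 lower.

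Genes outside the lists were among the largest changes. Prss30, a membrane serine protease, read 206, 236 and 156 on the db/m and 1194, 1049 and 1622 on the db/db arrays (log2 fold change 2.69, SE 0.38, limma adjusted p = 0.000779). St3gal3, a sialyltransferase, read 73.0, 147 and 35.4 on the db/m and 1088, 900.4 and 826 on the db/db arrays (at least 6.0-fold higher). It was bright enough to be tested only through these 3 db/db arrays, so its p-value is not given. Klf3, a repressor of the Krüppel-like family, read 407, 353 and 546 on the db/m and 1403, 2402 and 3263 on the db/db arrays (log2 fold change 2.38, SE 0.35, limma adjusted p = 0.000993), and its second probe set did not pass (0.62). On the lower side, Cpe, a carboxypeptidase of hormone processing, read 4455, 3586 and 2411 on the db/m and 698, 719.9 and 384 on the db/db arrays (log2 fold change -2.55, SE 0.28, limma adjusted p = 0.000254). C1qtnf3, an adipokine-like secreted protein, read 5597, 5014 and 4443 on the db/m and 1314, 820 and 596 on the db/db arrays (log2 fold change -2.53, SE 0.26, limma adjusted p = 0.000231), and Amacr, a racemase of branched fatty acid oxidation, read 10428, 8483 and 6032 on the db/m and 2502, 1082 and 1140.5 on the db/db arrays (log2 fold change -2.48, SE 0.31, limma adjusted p = 0.000442). The db/m and db/db arrays of these 6 genes did not overlap, and the calls of Prss30, Klf3, Cpe, C1qtnf3 and Amacr held in all 12 fits with 1 array left out.

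Evenness over the 3 db/db arrays differed widely among genes that changed by at least 2-fold. Vkorc1, the vitamin K epoxide reductase, read 8774, 7399 and 6647 on the db/m and 3149.8, 3006 and 3210.3 on the db/db arrays (log2 fold change -1.28, SE 0.14, limma adjusted p = 0.000254). Ciao2b, a factor of iron-sulfur protein assembly, read 2769.5, 3424 and 2713 on the db/m and 1353, 1270.4 and 1316 on the db/db arrays (log2 fold change -1.17, SE 0.16, limma adjusted p = 0.000654), and Sumf1, which activates sulfatases, read 1010, 1121 and 1043 on the db/m and 489, 467 and 441 on the db/db arrays (log2 fold change -1.18, SE 0.13, limma adjusted p = 0.000261). These 3 genes were named because their db/db values were among the most even, so their evenness is no separate result. At the other end, Rasd1, a glucocorticoid-induced small GTPase, read 490.2, 394 and 534 on the db/m and 574, 3349.5 and 4543 on the db/db arrays (log2 fold change 2.13, SE 0.61, limma adjusted p = 0.0210), and its call ended without db/db replicate 2 (0.0835), db/db replicate 3 (0.0753) or db/m replicate 2 (0.0632). Cckar, a cholecystokinin receptor, read 2811, 3526 and 2209 on the db/m and 1922, 282 and 395 on the db/db arrays (log2 fold change -2.23, SE 0.54, limma adjusted p = 0.0105). Rasd1 and Cckar were named because replicate 1 lay far from replicates 2 and 3. In both genes replicate 1 lay beside the db/m arrays.

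For some large differences that did not pass, the arrays of a genotype disagreed. The immunoglobulin gene Igkv6-23 read 4395, 1670.5 and 1366 on the db/m and 22.7, 258 and 6248 on the db/db arrays, and the aldo-keto reductase Akr1b8 read 929.9, 640.1 and 422 on the db/m and 504, 3772 and 3176 on the db/db arrays, with limma adjusted p = 0.210 and 0.0827. Replicate 3 carried the only high db/db value of Igkv6-23, and replicate 1 the only low one of Akr1b8.

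The genotype effect at 16 weeks was then set against that at 8 weeks, each from its own 6 arrays, to ask which genes changed their response with age. At a limma adjusted p under 0.05 the difference passed for 8 probe sets (0.115%), 1087 had an unadjusted p under 0.05, and 6 of the 8 represent a named gene. Plin2 had a log2 fold change of -0.36 (SE 0.30) at 8 weeks and 2.61 at 16 (difference 2.97, SE 0.42, limma adjusted p = 0.0258). Rras, a small GTPase of vessels, read 749, 612 and 469 on the db/m and 1726, 2787 and 1871 on the db/db arrays at 16 weeks (log2 fold change 1.80, SE 0.22, limma adjusted p = 0.000425) and had a log2 fold change of -0.25 (SE 0.22) at 8 weeks (difference 2.04, SE 0.31, limma adjusted p = 0.0368). Hsd3b2 fell more at 16 than at 8 weeks, when its log2 fold change was -0.34 (SE 0.12) (difference -1.45, SE 0.17, limma adjusted p = 0.00911). Lama3 was similar, with -0.54 (SE 0.18) at 8 weeks (difference -1.60, SE 0.26, limma adjusted p = 0.0464). Lama5 was -0.68 (SE 0.14) at 8 weeks and above 0 at 16 (difference 1.51, SE 0.20, limma adjusted p = 0.0258). Dio1, which activates thyroid hormone, was -1.39 (SE 0.19) at 8 weeks, read 401, 416 and 629.9 on the db/m and 681, 614 and 665 on the db/db arrays at 16 and did not pass there (log2 fold change 0.47, difference 1.86, SE 0.26, limma adjusted p = 0.0258). Each of these calls ended without 1 or more single arrays. That of Hsd3b2 ended only without db/m 8 week replicate 1 (0.0522). Those of the other 5 ended without db/db replicate 2, db/m replicate 2, any of the db/m 8 week arrays or db/db 8 week replicate 3, those of Dio1, Rras and Lama3 also without db/db 8 week replicate 1, and that of Lama3 also without db/db replicate 3, db/m replicate 1 or db/db 8 week replicate 2. In these fits the adjusted p was 0.0677 to 0.114 for Plin2, 0.0599 to 0.129 for Rras, 0.0677 to 0.0900 for Lama5, 0.0505 to 0.0913 for Dio1 and 0.0505 to 0.153 for Lama3.

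For several large changes the difference between ages did not pass. Gsta2 was 3.43 (SE 0.29) at 8 weeks against 3.05 at 16 (difference -0.39, SE 0.40, limma adjusted p = 0.701), Cyp7b1 -3.96 (SE 0.44) against -4.20 (difference -0.23, SE 0.63, limma adjusted p = 0.904) and Idi1 -3.30 (SE 0.35) against -3.31 (difference -0.012, SE 0.49, limma adjusted p = 0.995). Agt was -0.27 (SE 0.17) at 8 weeks against 1.21 at 16, and the difference did not pass (1.47, SE 0.24, limma adjusted p = 0.0579). The number of probe sets with a difference rested on single arrays: it was 762 without db/db replicate 1, 15 without db/m replicate 3, 16 without db/db 8 week replicate 2, 2 without db/m replicate 2, db/m 8 week replicate 2 or 3, db/db 8 week replicate 3 or db/db replicate 2, and 1 without db/m 8 week replicate 1.

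**Figure D5:**
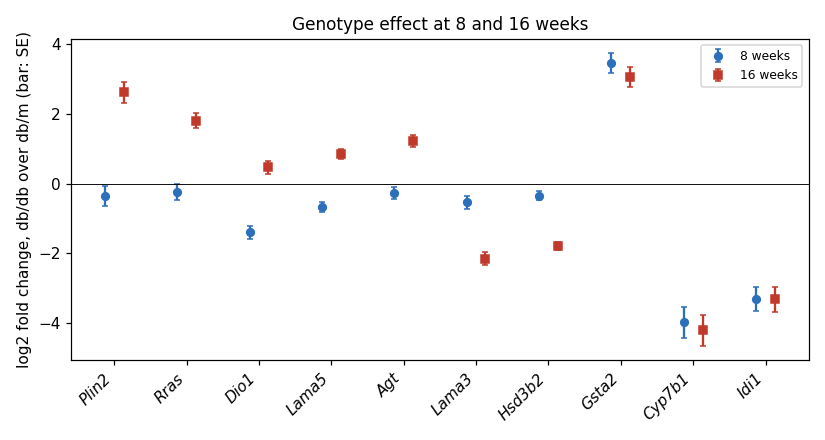
Log2 fold change of db/db over db/m at 8 weeks (blue circles) and 16 weeks (red squares) for 10 genes, with bars of 1 SE. Plin2, Rras and Lama3 lie apart at the 2 ages, Agt does so without passing, and Gsta2, Cyp7b1 and Idi1 coincide within their SE.

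Markers of tissues that adjoin the kidney were read to see what else the samples held. Of 12 tested skeletal muscle markers 5 were lower and 0 higher, with 1 higher at an unadjusted limma p under 0.05, and their summed intensity was 18966, 32087 and 16304 on the db/m and 9926, 11254 and 14778 on the db/db arrays. Acta1, the actin of skeletal muscle, read 2616, 7472 and 1563 on the db/m and 26.6, 32.6 and 39.5 on the db/db arrays (at least 20.1-fold lower, limma adjusted p = 0.000993), so that the muscle signal was highest on db/m replicate 2. The number of muscle markers lower was 3 without db/m replicate 1 and 2 without db/m replicate 2 or db/db replicate 2, and the number higher was 1 without db/m replicate 3. On values as deposited 3 were lower and 1 was higher. None of 6 tested adipocyte markers passed by limma, 2 were higher at an unadjusted p under 0.05 and on values as deposited, and their sum was 5464, 4503 and 3516 against 3905, 4692 and 7306. The number of adipocyte markers higher was 2 without db/m replicate 1 or db/db replicate 1 and 1 without db/db 8 week replicate 1 or 3. Nor did any of 7 blood cell markers, with 0 at an unadjusted limma p under 0.05 and sums of 33592, 51196 and 48369 against 45466, 39163 and 57286, and 1 was lower without db/db replicate 1. Of 3 tested adrenal cortex markers 2 were higher and 1 lower, and 1 was higher without any single array other than db/db replicate 1 or db/db 8 week replicate 1 or 2, and the number lower was 0 without db/m 8 week replicate 2 or 3 or db/m replicate 2 or db/db 8 week replicate 3 or db/db replicate 2 or 3. Of 4 tested exocrine pancreas markers 2 were higher, and the number higher was 1 without db/m replicate 1 or 2 and 0 without db/db replicate 2 or 3. Cyp21a1, an adrenal steroid hydroxylase, read 1684, 1678 and 1349 on the db/m and 2456, 2578 and 3278 on the db/db arrays (log2 fold change 0.81, SE 0.17, limma adjusted p = 0.00450), while the adrenal genes Cyp11a1, Star and Mc2r were too dim to be tested. The part of other tissues in the results was not tested.

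A panel of 31 genes often followed in diabetic kidney disease, Lepr included, closes the account. Of these 23 had a probe set and 19 were tested: 6 were higher (Agt, Igf1, Lcn2, Pck1, Slc2a1 and Txnip) and 5 lower (Ace, Egf, Kl, Ppargc1a and Slc2a2). Lcn2 and Ppargc1a are in these counts, but each was bright enough to be tested only through arrays of the genotype in which it was higher. Their calls support nothing here. Slc2a1, the glucose transporter of basolateral membranes, read 751, 936 and 1075 on the db/m and 998, 1720 and 1504 on the db/db arrays (log2 fold change 0.59, SE 0.21, limma adjusted p = 0.0476), with overlap on replicate 1, and its call ended without every single array but db/m replicate 3 and db/db replicate 1 (0.0545 to 0.175). Wt1, Tgfb1 and Col4a3 were too dim to be tested, as was Lepr. The other 8, among them Nphs1, Spp1 and Havcr1, were not analysed here.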

How the data were processed

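RNA of 12 mouse kidneys or kidney pools, 4 groups of 3, was measured on Affymetrix MG-U74Av2 arrays. The authors deposited 1 linear intensity per probe set and array, scaled to a trimmed mean that was nearly equal on all arrays, as the values themselves show; software and settings are not given in the sources used here. The 66 control probe sets were dropped, the 12 arrays were quantile normalised, values were floored at the 30th percentile (155) and put on the log2 scale, and probe sets above the 50th percentile (475) on at least 3 arrays were tested with limma 3.58.1 in R 4.3.3 (1 mean per group, all 12 arrays, 8 residual degrees of freedom, Benjamini-Hochberg adjustment over 6949 probe sets, threshold 0.05). The code was tested on simulated data. Figures were drawn with matplotlib 3.10.9 in Python 3.11.15.

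Platform annotation gave 10833 of 12422 probe sets 1 gene symbol, 396 several and 1193 none, and of 1029 symbols in 36 lists 2 were unmatched. Genes with values were named by rule: the 15 largest changes in each direction without overlap, up to 6 passed members per list, the 8 most even and the 8 least even over the db/db arrays (genes with no db/db array at the floor), genes whose effect differed between ages, 5 large changes that did not pass, and a disease panel. List members that did not pass are named for their known role and were chosen after their values were seen. Members and lists were chosen with earlier results of these data known. Promoters were searched only in the 250 bases before the start. A list gene, tested or not, was counted if any of its promoters matched, whereas the share over all promoters is of single promoters.

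Replicate numbers did not pair the samples: deviations from group means correlated over 0.1 in 1 of 18 same-numbered pairs, with a mean of -0.047. Alternatives were other scalings, floors, filters and variance models, array weights, the 6 arrays alone, a replicate block, the covariate, other probe sets and arrays left out. The normalisation of the arrays of 16 weeks alone was run for each age, with all 12 arrays in the fit, and gave no value for the difference between ages.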

Additional observations from a re-analysis of the deposited data

Results flagged for a closer look

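For 6 genes the effect of genotype at 16 weeks differed from that at 8 weeks by limma's test of the difference itself. On the log2 scale, the effect at 16 weeks minus that at 8 weeks was 2.97 for Plin2 (adjusted p = 0.0258), 2.04 for Rras (0.0368), 1.86 for Dio1 (0.0258) and 1.51 for Lama5 (0.0258). It was -1.45 for Hsd3b2 (0.00911) and -1.60 for Lama3 (0.0464). Each of these calls ended in at least 1 fit with a single array left out.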

How the results depend on the processing

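The 2353 passed probe sets (1040 higher, 1313 lower) and the 8 with a difference between ages moved with these choices. With a common median 1982 were lower. With array weights 3749 passed (1684 higher, 2065 lower), and with only the 6 arrays of 16 weeks 1310 did (583 and 727). With the 3' to 5' covariate 0 passed, 0 higher and 0 lower, as given with its unadjusted count in the report. Without db/db replicates 2 and 3 together 811 passed (351 and 460). With 1 array left out 1448 to 3053 passed, 579 to 1317 were higher and 869 to 1736 were lower. The number with a difference between ages was 34 with the floor at the 45th percentile, 13 with no filter, 16 with the filter within a group, 52 with trend and robust variances, 1167 with array weights, 0 with the replicate block, 0 with the covariate, 1 without db/db replicates 2 and 3, and 1 to 762 with 1 array left out. With the replicate block 2077 probe sets passed at 16 weeks (910 and 1167). The numbers do not pair the samples, so a call lost under the block is no measure of its size.

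Some genes changed sign. With the covariate Myh11 read 0.032 and Cubn 0.0085. With the dimmest probe set of a gene Fdps read 0.0040, Tm7sf2 -0.49, Slc1a1 0.12, Kcnj1 1.09, Col1a2 -0.42, Hspa4 0.72, Serpinf2 0.43 and Rpl22 1.19, and of these Hspa4 passed (limma adjusted p = 0.0179). Without db/db replicates 2 and 3 Slc2a2 read 0.070 and Atf3 -0.077. The cause was not tested.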
